A study of Drosophila melanogaster with 12 samples.

Results

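The replication-dependent histone genes of Drosophila melanogaster were taken from the transcription unit annotation of the study. They are the genes whose symbol starts with His1, His2A, His2B, His3 or His4 followed by a colon, and 111 of the 17698 annotated genes met that rule. No unit held more than 1 of them, so that they lay in 111 of 15991 units, and 91 were the only gene of their unit. All 111 units lay on chromosome arm 2L of the dm6 build, between 21416953 and 21541681, a span of 124729 bp.

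The series itself profiled RNA polymerase II by mNET-seq, which sequences nascent RNA held by immunoprecipitated polymerase, in S2 cells, a cultured male fly line. Its 12 libraries form 6 groups of 2 replicates, in which either all Pol II or the form with serine 5 phosphate on its C-terminal tail was captured after control RNAi (labelled GST), MSL1 RNAi or MOF RNAi. The design text gives 2 days of RNAi for the control and MSL1 and 4 days for MOF. The annotation carries a value for 0 of these 12 libraries, so the sequencing depth is unknown and no effect of RNAi on a histone gene is given. The coordinates are those of the reference assembly and not of S2 cells, so the number of histone copies in the cells was not measured.

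Histone proteins package DNA into nucleosomes, in which H2A, H2B, H3 and H4 form the core and H1 binds the linker. Replication-dependent histone genes are transcribed mainly in S phase, and their mRNAs end in a stem-loop in place of a poly(A) tail. In flies they lie in a tandem array that assembles a nuclear body, the histone locus body. The fly genome is known to hold more copies than the assembly shows. CLAMP, a zinc finger protein that also binds recruitment sites of the male-specific lethal (MSL) complex, is known to bind GA repeats between the His3 and His4 genes.

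The array read as 23 consecutive repeats. In rising coordinates each repeat ran His1 on the plus strand, His2B on the minus strand, His2A on the plus strand, His4 on the minus strand and His3 on the plus strand, and the next His1 followed. There were 23 units each of His1, the linker histone gene, His2B and His3, 22 of His4 and 20 of His2A. All 5 types were present in 19 repeats. The other 4 repeats each lacked exactly 1 type and held a unit named His-Psi, a histone pseudogene, in its place. No unit of any other kind lay between the first and the last histone unit, where 115 units were annotated in all. Of the 111 histone units, 66 lay on the plus strand and 45 on the minus strand, a split that follows from 3 plus and 2 minus types per repeat.

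**Figure D1:**
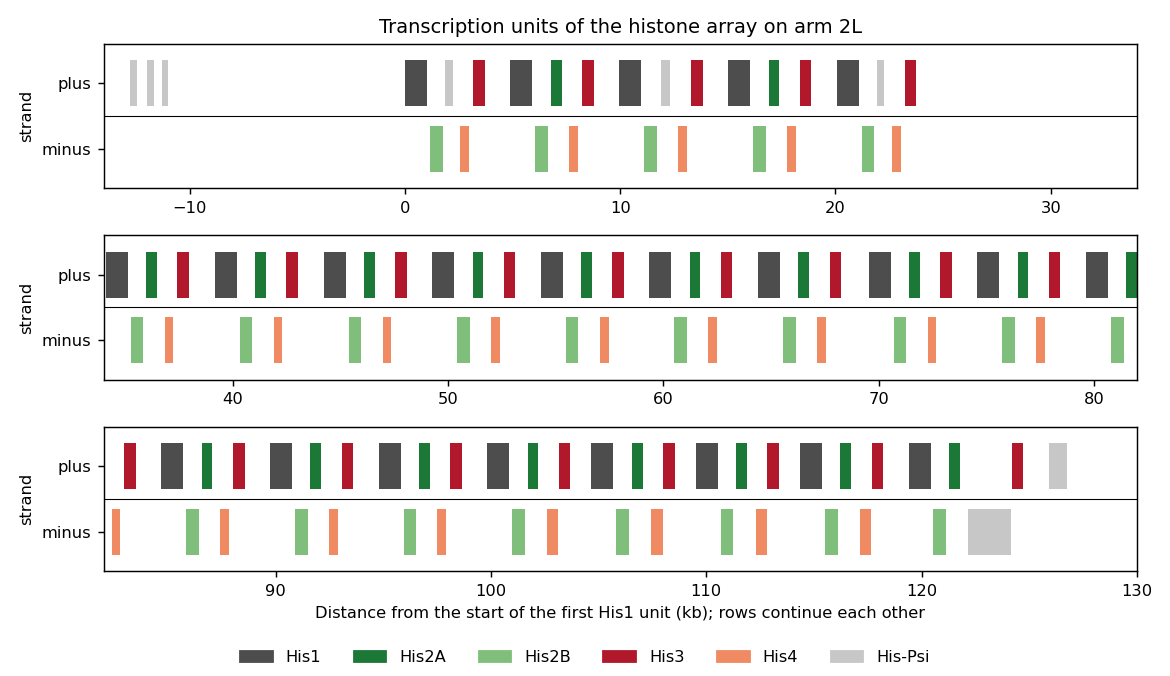
Map of the array, with each unit drawn to scale on its strand against the distance from the start of the first His1 unit in kb. The 3 rows continue each other. Light grey boxes are His-Psi units and dark grey boxes are His1 units. A stretch of 10336 bp without any unit separates the first 5 repeats from the other 18.

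The His1 copies were identical in annotated length. All 23 units spanned 1023 bp, all 23 His2B units 595 bp and all 23 His3 units 529 bp. Of 20 His2A units, 19 spanned 493 bp and His2A:CG33808 spanned 476 bp. His4 was the type whose length varied most. Its 22 units comprised 17 of 413 bp, His4:CG33907 of 412 bp, His4:CG33869 of 526 bp, and His4:CG33875, His4:CG33873 and His4:CG33871 of 528 bp each. Over all 111 units the median length was 529 bp, against 1822.5 bp over the 15960 units of the nuclear chromosomes and arms, histone units included. Only 29.2% of those units were as short as a His1 unit or shorter. Each histone gene had exactly 1 annotated transcript, while 55.8% of all nuclear units had no more transcripts than genes.

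The period of the array, measured as the distance between consecutive His1 starts, had a median of 5045 bp over 22 pairs. The 21 pairs without the empty stretch ran from 4843 bp to 5151 bp. In the 3 shortest, which followed repeats 19, 20 and 21, the next His1 start came at 4843 bp. Repeat 1 followed with 4902 bp. Repeat 12 had the longest, with 5151 bp. The remaining 16 of these pairs lay between 5043 and 5061 bp, so that most of the array kept a nearly constant period.

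**Figure D2:**
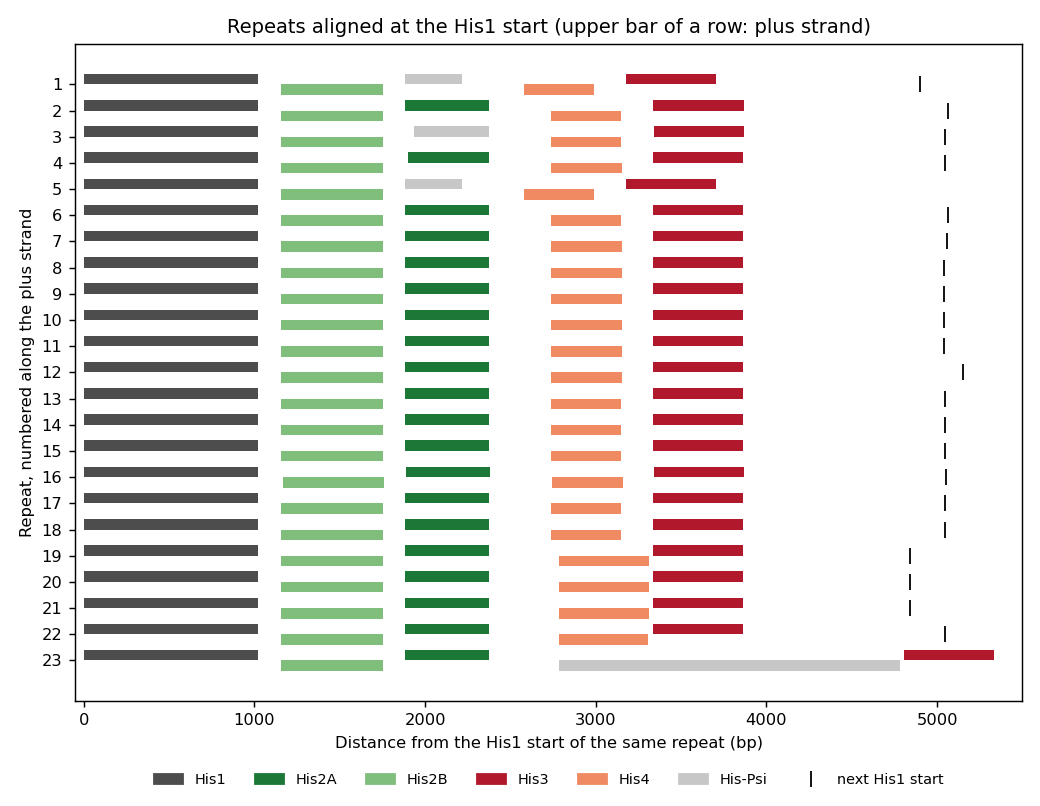
The 23 repeats aligned at the start of their His1 unit, with the distance from that start in bp; the upper bar of a row is the plus strand, and the black tick marks the next His1 start where it lies within the axis. Repeats 19 to 21 reach the next His1 at 4843 bp, repeats 1 and 5 have a shorter His2B to His3 interval, and repeat 23 has a longer one.

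The spacing between starts showed where the repeats differed. The interval from the His1 start to the His2B start was 1753 bp in 22 repeats and 1759 bp in repeat 16. The interval from the His2B start to the His3 start, which spans His2A and His4, was 1581 bp in 12 repeats and at most 1586 bp in 8 more. It was 1423 bp in repeats 1 and 5 and 3054 bp in repeat 23. These 3 are repeats with a His-Psi unit inside that interval. Repeat 3, the other repeat with a His-Psi unit, had an interval of 1586 bp, a value found in no other repeat. That value was close to the 1585 bp of repeat 2, which held all 5 types, so a pseudogene was not always accompanied by a large difference in spacing.

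The last interval, from the His3 start to the next His1 start, holds the tandem pair of each repeat and took the most values. Its median was 1711 bp. It was 1507 bp after repeats 19, 20 and 21, a departure of -204 bp from the median, while their other 2 intervals were 1753 and 1583 bp. After repeat 12 it was 1815 bp, or 104 bp over the median. After repeat 5 it was 10865 bp. That last interval contains the stretch from 21440716 to 21451051, in which neither the annotation nor the RefSeq gene table placed a gene. The stretch equals 2.05 median periods, but it includes the usual gap between His3 and the next His1, with a median of 1182 bp. Measured between starts, the interval after repeat 5 was 9154 bp over the median. Whether the stretch holds histone genes in the cells was not tested.

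**Figure D3:**
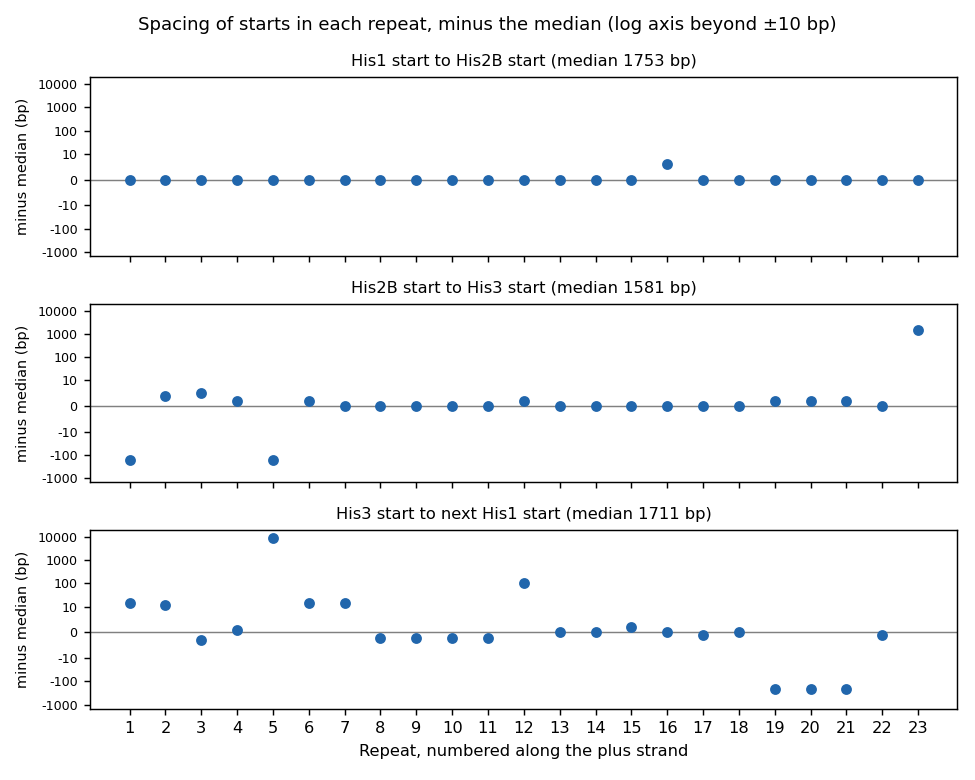
Distance between starts in each repeat minus the median over repeats, in bp, on an axis that is logarithmic beyond 10 bp in either direction. The His1 to His2B interval departs from 1753 bp only in repeat 16, the His2B to His3 interval by -158 bp in repeats 1 and 5 and by 1473 bp in repeat 23, and the His3 to His1 interval by -204 bp after repeats 19 to 21.

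Several neighbouring repeats were identical to the base in layout. When the start and end of every histone unit were expressed relative to the His1 start, the 23 repeats fell into 12 layouts. Of these, 4 were shared: by repeats 7 to 11, by repeats 13, 14, 15, 17 and 18, by repeats 19 to 21, and by repeats 1 and 5. The other 8 repeats each had a layout of their own. With the distance to the next His1 added, repeats 8 to 11 still matched one another, as did repeats 13, 14 and 18 and repeats 19 to 21. Shared layouts were thus mostly found among neighbours, although repeats 1 and 5, which share theirs, are not adjacent. An equal layout does not show an equal sequence, and no sequences were compared.

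Divergent gene pairs were the rule in the array. In such a pair the genes lie on opposite strands and are transcribed away from each other, here from starts at most 1000 bp apart. By that rule 88 of 111 histone units (79.3%) had a divergent neighbour, against 33.1% of all nuclear units. The 88 were every His2A, His2B, His3 and His4 unit, and no His1 unit was among them. The count was also 88 at 500 bp, where the share of all nuclear units was 24.3%, and at 250 bp, where it was 12.6%. At 2000 bp it was 109 (98.2%), against 41.0%. The rule takes the nearest divergent start and does not require the 2 units to be adjacent. All units added at 2000 bp were His1 units, whose divergent start is the His4 of the previous repeat. The His3 of that repeat lies between them, so the adjacent unit on that side is in tandem. Since the units are an annotation and copies of a repeat are not independent, no test was made. Along the array, with the His-Psi units between them included, 46 of 114 neighbouring pairs of units were divergent, 46 were convergent and 22 lay in tandem, or 40.4%, 40.4% and 19.3%. Over all nuclear units the shares were 28.2%, 28.3% and 43.5%. The smaller tandem share of the array follows from its repeat order, in which only His3 and the next His1 lie in tandem. With the His-Psi units skipped, 26 of 110 pairs (23.6%) lay in tandem.

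His2A and His2B formed 20 pairs with their starts 129 bp apart in 19 repeats. In repeat 4 the distance was 146 bp. That is the repeat of the short His2A:CG33808, whose unit starts 17 bp further from His2B than in the other repeats. In the 3 repeats without His2A, the nearest divergent start to His2B was that of the pseudogene unit, at 129 bp for His-Psi:CR33802 and His-Psi:CR33811 and at 181 bp for His-Psi:CR33805.

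His3 and His4, whose proteins form a tetramer at the centre of the nucleosome, formed 22 pairs with a median distance of 184 bp between starts. In repeats 1 to 18 the distance was between 182 and 189 bp. In repeats 19 to 22 it was 26 bp. Since the repeats were split here by this distance, it separates the 2 sets by construction. Among all nuclear units 0.664% had a divergent start at most 26 bp away, 6.54% at most 129 bp and 8.98% at most 184 bp. Of nuclear units with a divergent start at most 1000 bp away, the median distance was 304 bp.

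**Figure D4:**
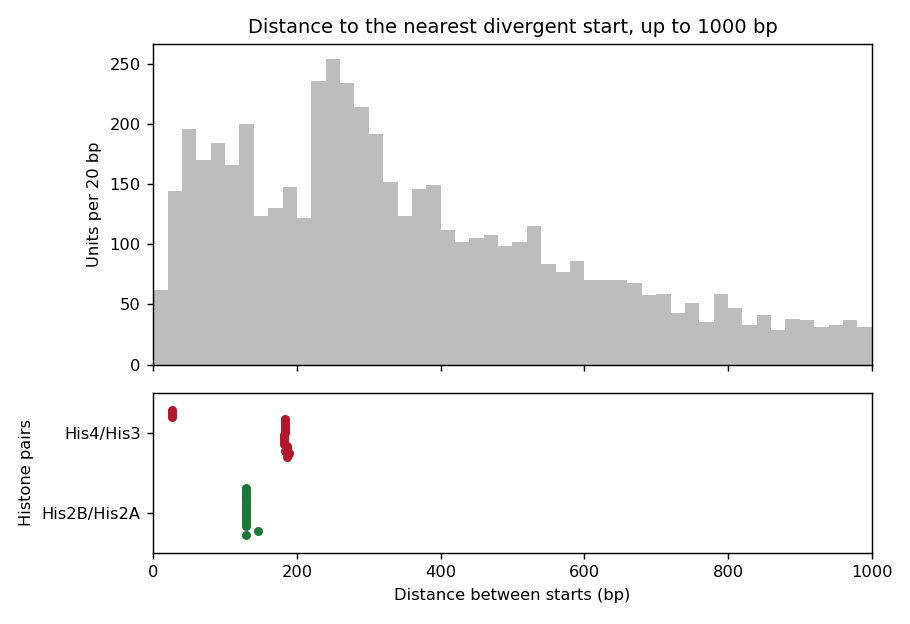
Upper panel: number of nuclear units, per 20 bp, by the distance to the nearest divergent start, for distances up to 1000 bp. Lower panel: distance between starts in each His2B/His2A and His4/His3 pair, one point per repeat, with points spread vertically by repeat. The His2B/His2A points sit at 129 bp with 1 at 146 bp, and the His4/His3 points sit between 182 and 189 bp with 4 at 26 bp.

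The short His4/His3 distance of repeats 19 to 22 went with a different His4 unit and not with a different place of His3. In repeats 19 to 21 the His2B start was 1583 bp from the His3 start and in repeat 22 it was 1581 bp, within the 1581 to 1586 bp of all other repeats except 1, 5 and 23. Relative to His3, the 4 His4 units of 526 to 528 bp started 158 bp nearer and ended 43 bp nearer than the 18 shorter ones, by medians. Their RefSeq transcripts all carried version 1, whereas 17 of the 18 shorter His4 genes carried version 2 and His4:CG31611, of repeat 2, version 3. No other histone gene carried version 1. The His1, His2A, His2B and His3 genes carried version 2, except those of repeat 2, which carried version 3 or 4. The part of the transcript version in the different spans was not tested. Repeat 22 had the longer His4 unit and a period of 5044 bp, so the longer unit was also found without the short period of repeats 19 to 21.

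**Figure D5:**
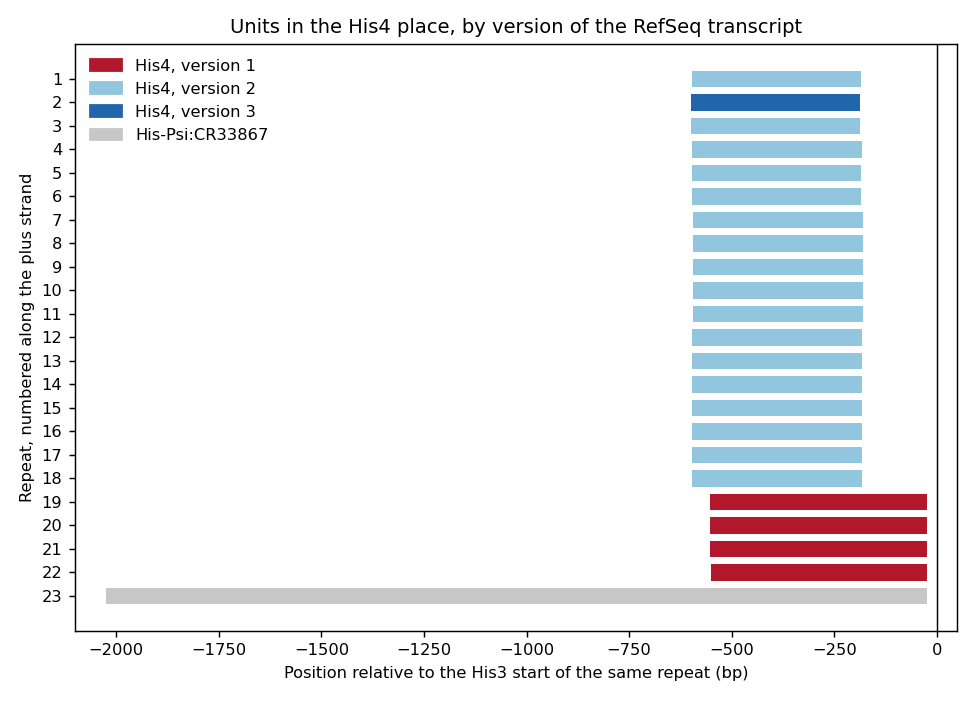
Extent of the unit in the His4 place of each repeat relative to the His3 start of that repeat, in bp, coloured by the version of the RefSeq transcript. The 4 units of version 1 come to 26 bp from the His3 start, the 18 others between 182 and 189 bp, and the pseudogene unit of repeat 23 also comes to 26 bp.

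His1 stood apart from the core histone genes in its surroundings. Its nearest divergent start was the His4 of the previous repeat in 22 of 23 units, and the distance was 1533 bp for the 3 units after repeats 19 to 21. For His1:CG33813, the first unit after the empty stretch, it was 11051 bp. In the other 18 of the 22 it lay between 1736 and 1999 bp. The 1736 bp was that of His1:CG33864, after repeat 22, and the rest lay between 1891 and 1999 bp. After repeats 19 to 22 the distance was measured to the longer His4 units, which start nearer to His3. The first His1 of the array, His1:CG33801, had its nearest divergent start 47247 bp away, at the gustatory receptor gene Gr39b. In flies His1 promoters are known to use TRF2, a relative of the TATA-binding protein, while the core histone promoters use the TATA-binding protein itself. Downstream, every His1 unit ran towards the end of His2B, with a gap of 136 bp in 22 repeats and 142 bp in repeat 16. The convergent ends of His2A and His4 were further apart, at 363 to 365 bp in repeats with a His4 unit under 500 bp and 408 bp in repeats 19 to 22.

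No histone unit overlapped another unit on either strand, whereas 39.6% of all nuclear units did. The median gap to the nearest unit was 136 bp for histone units and 71.0 bp for all nuclear units. A unit that overlaps another was given a gap of 0 bp, which lowers the median of all nuclear units. Nuclear units without overlap were not compared on their own. Histone and His-Psi units together covered 57.6% of the span of the array. In the complete repeats before repeat 19, histone units made up between 59.3% and 60.5% of the period. In repeats 19 to 21 they made up 65.4%. Repeat 22, also with the longer His4 unit, had 62.8% at a period of 5044 bp.

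All 20 His2A units held a further gene, a small non-coding RNA named snmRNA:430 in the annotation. These were the only multi-gene units among the 111, while 7.14% of all nuclear units held more than 1 gene. In the RefSeq table each small RNA gene was 36 bp long. It began 139 bp into the His2A unit in 19 repeats and 122 bp into that of His2A:CG33808, and in all 20 it ended 318 bp before the end of the unit. The shorter His2A unit was therefore shorter at its start only. The His-Psi units in the His2A place held no such gene.

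The 4 His-Psi units inside the array lay in the place of the absent type, His2A in repeats 1, 3 and 5 and His4 in repeat 23. Each was assigned to the type its repeat lacked, and what these units derive from was not tested. His-Psi:CR33802 and His-Psi:CR33811 were both 333 bp long and started 1882 bp after the His1 start, which is also the median His2A start. His-Psi:CR33805, of 440 bp, started later, at 1934 bp, and ended at 2373 bp, next to the median His2A end of 2374 bp. His-Psi:CR33867, on the minus strand, was 1999 bp long, and the His2B to His3 interval of its repeat was 1473 bp longer than the median. At the ends of the array lay 4 more His-Psi units. Of these, His-Psi:CR31616, His-Psi:CR31615 and His-Psi:CR31754, of 303 to 315 bp, lay between 21404181 and 21405970, at least 10982 bp before the first His1. His-Psi:CR31614, of 825 bp, followed the last His3 after a gap of 1182 bp. Beyond them, the nearest units were nrv3, a gene for a subunit of the sodium pump, which ended 23633 bp before the array, and Lamp1, a lysosomal membrane protein gene, which began 31707 bp after it.

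Replication-independent histone genes, which supply histones outside S phase or in special chromatin, lay elsewhere and had other layouts. All 6 genes of that list had a unit, on 3R, 2L, 2R and X, with lengths from 860 bp for His4r to 4147 bp for His3.3B and between 1 and 4 transcripts. All but His3.3B had a divergent start within 1000 bp, or 5 of 6 against 33.1% of all nuclear units, and in no case was that neighbour a histone gene. The starts were 52 bp apart for His4r and put, 122 bp for His2Av and ball, 42 bp for His3.3A and CG14036, 226 bp for cid, the centromeric H3 gene, and cbc, and 253 bp for BigH1, a linker histone gene of the early embryo, and Rad17. For His3.3B the distance was 1953 bp.

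The proteins that bind, transcribe or process histone genes and their mRNAs are encoded outside the array. All 13 genes of the list had a unit, and only Clamp lay on 2L, from 22165720 to 22169143. A divergent start lay within 1000 bp for 12 of 13, against the 33.1% of all nuclear units, with Trf2 at 2009 bp as the exception. Slbp, whose protein binds the histone mRNA stem-loop, started 258 bp from Rpn2. The genes of the U7 snRNP proteins Lsm10 and Lsm11 started 36 bp from RpS15Ab and 276 bp from CG1665. That of mxc, the scaffold of the histone locus body, started 350 bp from Larp7 on X, and those of FLASH and mute, other components of that body, 198 bp from Orc3 and 192 bp from PIG-V. The starts were 34 bp apart for Sym, the gene of the cleavage factor Symplekin, and Madm, and 565 bp for Cpsf100 and beta4GalNAcTB. Clamp started 525 bp from CR44809, and Trl, the GAGA factor gene, 184 bp from CG9384. Cpsf73, the gene of the nuclease that cuts histone pre-mRNA, and CstF64, which takes part in 3′ end cleavage, were neighbours on 3R whose units overlapped, since Cpsf73 began its span at 18661121 and CstF64 ended at 18661126. Overlap with another unit was found for 9 of the 13, beside 39.6% of all nuclear units and 0 of 111 histone units.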

How the data were processed

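The analysis rests on 1 file, an annotation of transcription units for the whole series. Per the file header the authors wrote it with rtracklayer 1.48.0, and the deposited starts and ends are 1-based positions on dm6. The merging rule was not given in the sources used here. Read processing named in the submitters' processing notes (cutadapt 2.8, STAR 2.7.4a, SAMtools 1.20) does not enter here. Libraries were grouped by title, and none gave a value. Histone genes were found by symbol, and each His1 unit opened a repeat. A unit's start is its 5′ end on its strand, and a distance between starts is the difference of positions. A gap counts the bases between units. All 111 symbols matched the RefSeq gene table of Release 6 with exactly the same span, so that table is no independent check. The members, the related gene lists and the questions were chosen with earlier results of these data known. The layouts, His4 spans, transcript versions and window densities were compared after values were seen. The naming rule covered all members, the flanking units, 6 replication-independent histone genes and 13 genes of histone expression, and the text names those members whose values differ from the other copies. Other genes are named only as nearest divergent neighbours, and His-Psi units were added after values were seen. Planned comparisons of promoter and protein sequences and of motifs were not made, because sequences were not used here. Without replicates no test was made. Distances were tested on simulated data in 5 simulations of 120 intervals each, with 0 mismatches to a pairwise loop. Python 3.11.15, NumPy 2.4.6, SciPy 1.17.1 and Matplotlib 3.10.9 were used.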

Additional observations from a re-analysis of the deposited data

How the results depend on the processing

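No paired analysis was possible because the annotation holds no value of any library and no result comes from a test. The count of 19 complete repeats was the same when a repeat was opened at His3. It was also the same without the strand requirement, which could not change it because each type lay on a single strand. The median period was 5045 bp between His1, His2A, His2B, His3 or His4 starts, over repeats with all types, and, in an alternative chosen after seeing the data, without the pair across the empty stretch. The divergent share of 79.3% was the same at 250 and 500 bp. At 2000 bp it was 98.2%, because the distance then takes in His1 and the His4 of the previous repeat, although a His3 unit lies between them. The median gap of 136 bp was 959 bp between units on the same strand, which leaves out the nearer unit on the other strand. The median length was 595 bp over units with 1 gene, which leaves out His2A. By RefSeq spans the median was 529 bp, which could not differ because all 111 spans were the same. Tied to 1 assembly, these values carry no replicate error, and sequencing depth does not enter them.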

Other observations

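The array was among the densest parts of the annotation. On a fixed grid of 1056 consecutive windows of 124729 bp on the 5 large arms, the median was 15.0 units a window. The window that covers most of the array, on 2L from 21453389 to 21578117, held 90. A window on 2R from 19707183 to 19831911 held 120, of which 96 were named 5SrRNA, the 5S ribosomal RNA genes, and the window next in order after these held 51. The array measured between its own edges, which favours it over the grid, held 115.

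Some exact unit lengths were held mostly by histone copies. Of 29 units of exactly 1023 bp in the whole annotation, 23 were His1. Of 29 units of 595 bp, 23 were His2B, and of 28 units of 529 bp, 23 were His3. For 413 bp, 17 of 30 units were His4, and for 493 bp, 19 of 24 were His2A. Lengths held by 1 histone unit each had few other units as well: of units of 412, 526 and 476 bp there were 6, 8 and 10 in all, the histone unit included.

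His-Psi:CR31614 started 1711 bp after the last His3 start, which equals the median distance from a His3 start to the next His1 start in the array. It lay on the plus strand, as His1 does, and its 825 bp compare with 1023 bp for a His1 unit. What it derives from was not tested.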
